A study of Homo sapiens with 6 samples.

Results

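The genes described here encode 7 matrix metalloproteinases (MMP1, MMP2, MMP3, MMP9, MMP10, MMP14 and MMP15) and 3 tissue inhibitors of metalloproteinases (TIMP1, TIMP2 and TIMP3), which makes 10 of the 60612 genes in the deposited table. They were read from the table by Ensembl identifier and symbol. The family was selected on the same contrast that is described below, because the RNA of MMP3 had the largest fall among the genes that the study displayed in its RNA heat map, so the differences of the 10 genes between the groups are given as a description. Where calls of these genes from the fit over all genes are counted below, the selection bears on them and they are no independent test.

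The cells were U87, an established line from a human glioblastoma. Sequenced RNA came from 3 control libraries (NC), whose cells received a scramble shRNA, and from 3 libraries of cells with a short hairpin RNA against the arginine methyltransferase PRMT6 (shPRMT6). The cells of both groups received a lentiviral hairpin, and the sources used here do not name which PRMT6 hairpin was sequenced. The methods of the study call the replicates independent and do not say whether each had an infection of its own.

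Matrix metalloproteinases are zinc-dependent enzymes that cut collagens, laminins, fibronectin and other proteins around the cell. They are made as inactive precursors, are switched on when a prodomain is removed, and are blocked by TIMPs, which bind the active site. In glioblastoma they are known for their part in the breakdown of brain matrix at the invading edge, and their activity depends on activation and inhibition as well as on RNA.

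Total counts ranged from 56388161 to 75887696 per library. PRMT6 itself had 9.33, 7.97 and 7.19 CPM (counts relative to the total of the library, after TMM scaling) in the NC libraries (replicates 1, 2 and 3), against 3.57, 4.58 and 5.24 CPM in the shPRMT6 libraries. Its log2 fold change was -0.87 (SE 0.187), with an adjusted p of 0.0225 by the quasi-likelihood test of edgeR after Benjamini-Hochberg correction. That call was lost when NC replicate 1 (-0.77), shPRMT6 replicate 1 (-0.73) or shPRMT6 replicate 2 (-0.89) was left out. Of the 8 glial and glioma markers, VIM and CD44 were abundant, while S100B and AQP4 had no counts in any library and GFAP had 11 to 60 counts. NES had 2144 to 3261 counts per library, OLIG2 had 120 to 200 and SOX2 had 0 to 26. In total RNA of a culture, fewer cells of a type and less RNA per cell cannot be told apart.

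MMP3, MMP10 and MMP1 stand next to each other on chromosome 11 of GRCh38, all on the minus strand, and their exon 5 encodes the helix with the zinc-binding histidines. The coding stretch around that site is printed for the 3 genes because it shows how far their reads can be told apart. Sequences are of GRCh38, written 5′ to 3′ along the transcript, with capitals at the bases of MMP10 and MMP1 that differ from MMP3 and, in MMP3, at the bases that differ from both others.
MMP3, chr11:102840514-102840588, minus strand: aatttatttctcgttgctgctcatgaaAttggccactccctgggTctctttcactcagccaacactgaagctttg
MMP10, chr11:102776697-102776771, minus strand: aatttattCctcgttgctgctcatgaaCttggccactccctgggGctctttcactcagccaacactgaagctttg
MMP1, chr11:102795528-102795602, minus strand: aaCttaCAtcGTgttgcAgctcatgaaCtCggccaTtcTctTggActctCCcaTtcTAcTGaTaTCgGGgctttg

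Over these 75 bases MMP10 differed from MMP3 at 3 positions and MMP1 at 24. Across the aligned coding sequences, MMP3 and MMP10 were 85.0% identical with a longest identical run of 96 bases, whereas MMP1 was 66.4% identical to MMP3 with a longest run of 18. Of the 75-base stretches of MMP3 transcripts, 22 of 2047 (1.07%) also occurred in MMP10, and none was shared with MMP1 on the same strand. A read of 75 bases could therefore come from either MMP3 or MMP10 over a small part of their length, without mismatches or polymorphisms taken into account. The 75 bases were a chosen length, and the read length of these libraries was not used.

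MMP3 (stromelysin-1, ENSG00000149968) cuts proteoglycans, laminin, fibronectin and several collagens, and can remove the prodomain of other metalloproteinases. The libraries, in the order of replicates 1, 2 and 3 used throughout, held 2470, 2803 and 2395 raw counts of MMP3 in NC and 215, 267 and 231 in shPRMT6. On the CPM scale, the NC libraries were at 44.2, 36.9 and 38.4 and the shPRMT6 libraries at 3.38, 4.34 and 3.41. The groups were far apart, with the highest shPRMT6 library well below the lowest NC library. The means were 39.8 ± 3.86 CPM in NC and 3.71 ± 0.546 CPM in shPRMT6 (SD, n = 3 each), or 9.32% of NC, and the log2 fold change of MMP3 was -3.42 (SE 0.145). MMP3 was the lowest of the 10 genes in fold change, and its fall is the value that selected the family.

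MMP1 (interstitial collagenase, ENSG00000196611) opens the triple helix of fibrillar collagens. It was at 53.4, 48.8 and 49.7 CPM in NC and at 97.5, 97.4 and 93.3 CPM in shPRMT6. Its direction was the opposite of that of MMP3, and all 3 shPRMT6 libraries lay above all NC libraries. The means were 50.6 ± 2.42 CPM in NC and 96.1 ± 2.37 CPM in shPRMT6 (SD, n = 3 each), a 1.90-fold higher level, with a log2 fold change of 0.92 (SE 0.0637).

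MMP10 (stromelysin-2, ENSG00000166670) is the closest of the members to MMP3 in coding sequence and cuts a similar range of matrix proteins. Its raw counts were 228, 302 and 278 in NC and 510, 417 and 566 in shPRMT6. In CPM these were 4.08, 3.97 and 4.45 in NC and 8.01, 6.78 and 8.36 in shPRMT6. The groups did not overlap, and MMP10 lay on the side of MMP1 and not on that of MMP3. The level was 1.85-fold higher in shPRMT6, with a log2 fold change of 0.89 (SE 0.137).

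The balance among these neighbours differed between the groups, and MMP3 was below MMP1 in both. Per transcript length, on the deposited FPKM scale, the ratio of MMP3 to MMP1 was 0.880, 0.803 and 0.820 in the NC libraries and 0.0368, 0.0473 and 0.0388 in the shPRMT6 libraries. The ratio of MMP3 to MMP10 in FPKM was 10.3, 8.81 and 8.18 in NC and 0.399, 0.608 and 0.387 in shPRMT6, so that the more abundant stromelysin was MMP3 in every NC library and MMP10 in every shPRMT6 library. The summed FPKM of MMP1, MMP3 and MMP10 moved much less, at 44.3, 39.5 and 41.2 in NC and 47.2, 47.0 and 45.7 in shPRMT6. Every shPRMT6 sum was still above every NC sum. Within that sum MMP3 made up 42.4% to 44.8% in NC and 3.26% to 4.20% in shPRMT6.

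**Figure D1:**
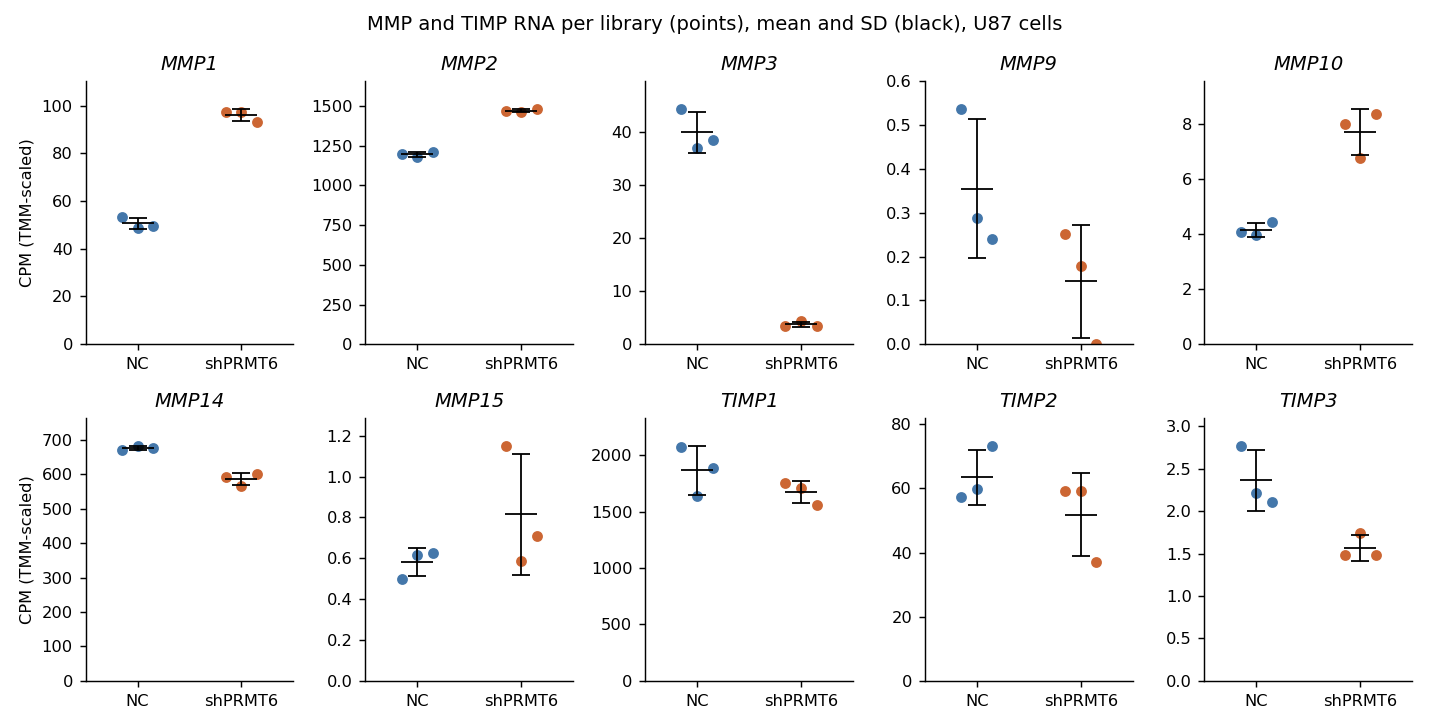
Each panel plots 1 gene, with the level in CPM after TMM scaling on an axis from 0, the 3 NC and 3 shPRMT6 libraries as points and the mean with its SD in black. The MMP3 points sit between 36.9 and 44.2 CPM in NC and between 3.38 and 4.34 in shPRMT6, while the MMP1, MMP2 and MMP10 points are higher in shPRMT6.

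MMP2 (gelatinase A, ENSG00000087245, chromosome 16) cuts denatured collagen and basement membrane collagen. Among the metalloproteinases it had the highest level per length in both groups, at 213, 211 and 218 FPKM in NC and 265, 262 and 266 FPKM in shPRMT6. In CPM it was at 1200 ± 15.5 in NC and 1470 ± 8.92 in shPRMT6 (SD, n = 3 each), with no overlap. The difference was small beside that of MMP1 but wide against the spread between libraries, with a log2 fold change of 0.30 (SE 0.0407).

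MMP9 (gelatinase B, ENSG00000100985, chromosome 20), the other gelatinase, was close to the limit of detection. Its raw counts were 30, 22 and 15 in NC and 16, 11 and 0 in shPRMT6, and a count of 0 allows up to 3. The groups overlapped, and the fitted log2 fold change of -1.30 had an SE of 1.07. Leaving out shPRMT6 replicate 3, the library with 0 counts, gave -0.71. Of the exonic bases of MMP9, 18.4% overlap the antisense gene SLC12A5-AS1 (named after its values were seen), which had 0 to 15 counts per library. At this depth, no difference of MMP9 was detectable.

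MMP14 (membrane type 1, ENSG00000157227, chromosome 14) sits in the plasma membrane, where it cuts collagen and activates the MMP2 precursor together with TIMP2. It was at 669, 681 and 677 CPM in NC and at 592, 566 and 599 CPM in shPRMT6. The groups did not overlap, but they lay close to each other, with the shPRMT6 mean at 86.8% of NC. The log2 fold change of MMP14 was -0.20 (SE 0.0466). MMP14 lost its place past an adjusted p of 0.05 when NC replicate 3 or any 1 of the shPRMT6 libraries was left out, with DESeq2, with a filter of at least 1 count in any library, or with the replicate number as a block.

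MMP15 (membrane type 2, ENSG00000102996, chromosome 16), another membrane-anchored enzyme, had 28, 47 and 39 raw counts in NC and 73, 36 and 48 in shPRMT6. A single library, shPRMT6 replicate 1, stood above the rest, and the groups overlapped. Its log2 fold change was 0.48 (SE 0.353), and 0.15 without that library.

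TIMP1 (ENSG00000102265, chromosome X), a secreted inhibitor of most soluble metalloproteinases, had the highest level of the 10 genes. Its FPKM was 1190, 952 and 1110 in NC and 1020, 997 and 917 in shPRMT6. The ranges overlapped, since NC replicate 2 lay among the shPRMT6 libraries. The log2 fold change of TIMP1 was -0.16 (SE 0.0936), and it ran from -0.25 without NC replicate 2 to -0.08 without NC replicate 1.

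TIMP2 (ENSG00000035862, chromosome 17) inhibits MMP2 and is also needed by MMP14 to activate it. In CPM it was at 57.2, 59.9 and 73.2 in NC and at 59.3, 59.2 and 36.9 in shPRMT6. Only shPRMT6 replicate 3 was low, and the other shPRMT6 libraries lay inside the NC range. The log2 fold change of -0.29 (SE 0.200) was -0.10 without shPRMT6 replicate 3 and -0.18 without NC replicate 3. The FPKM ratio of MMP2 to TIMP2 was 25.2, 23.5 and 19.7 in NC and 29.7, 29.5 and 47.9 in shPRMT6. Every shPRMT6 library had a higher ratio than every NC library, and shPRMT6 replicate 3 had the highest. The FPKM ratio of MMP14 to TIMP2 overlapped between the groups, at 14.8, 14.4 and 11.7 in NC and 12.6, 12.1 and 20.5 in shPRMT6.

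TIMP3 (ENSG00000100234, chromosome 22) binds to the matrix and also inhibits ADAM and ADAMTS enzymes. Its raw counts were 155, 168 and 132 in NC and 94, 107 and 100 in shPRMT6, or 2.77, 2.21 and 2.11 CPM against 1.48, 1.74 and 1.48 CPM. Every shPRMT6 library was below every NC library. The log2 fold change of TIMP3 was -0.60 (SE 0.199), which did not pass the threshold over all genes tested.

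All 10 genes were among the 18106 that passed the filter on low counts. By the quasi-likelihood test of edgeR, at an adjusted p below 0.05, 2 of the 10 were lower in shPRMT6 (MMP3 and MMP14) and 3 higher (MMP1, MMP2 and MMP10), where 9.06% of the 18106 genes tested were lower and 9.51% higher, 18.6% in all. The groups did not overlap for 6 of the 10, against 40.2% of all genes tested. The median log2 fold change of the 10 was -0.18, against -0.01 over all genes tested. Since the contrast chose the family, nothing is read from these counts. Over all genes, the number past the threshold was 3362, and 1939 without NC replicate 3 and 1871, 1755 and 1858 without shPRMT6 replicates 1, 2 and 3, while 4 of the 10 passed in each of those fits, all but MMP14.

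Per length, the order of the mean levels in NC was TIMP1 (1090 FPKM), MMP2 (214), MMP14 (128), MMP1 (21.6), MMP3 (18.1), TIMP2 (9.48), MMP10 (1.99), TIMP3 (0.431), MMP9 (0.126) and MMP15 (0.114). Only MMP9 and MMP15 of these neighbours overlapped between libraries. In shPRMT6 the order from TIMP1 to MMP1 was the same, and MMP3 moved below TIMP2 and MMP10 to the place above TIMP3, at 1.69 ± 0.246 FPKM (SD, n = 3). MMP15 stood above MMP9 there, and no neighbours in the order overlapped.

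**Figure D2:**
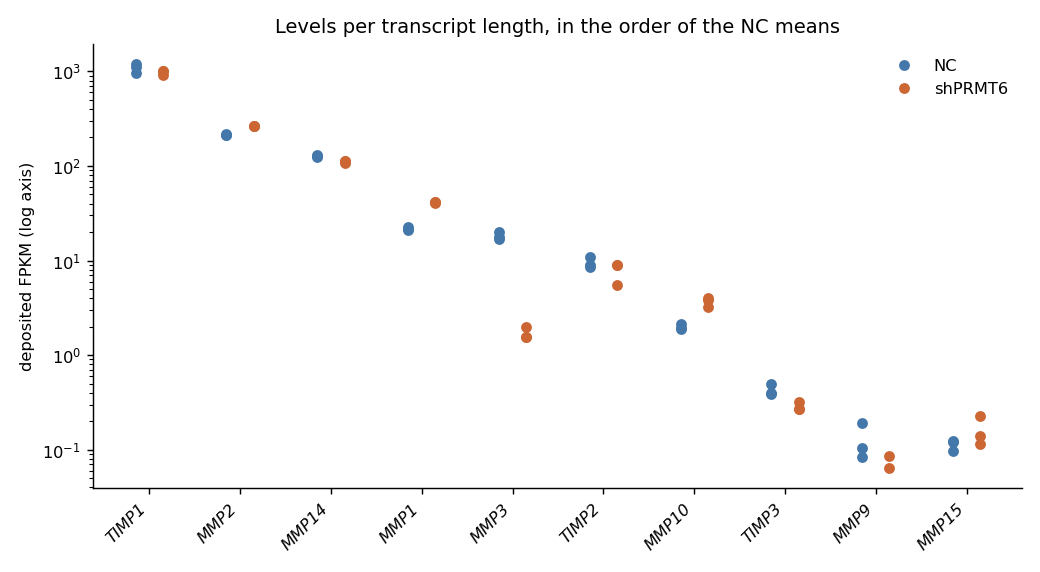
The deposited FPKM of the 10 genes is plotted on a log axis in the order of the NC means, with 1 point per library, blue for NC and orange for shPRMT6, and the shPRMT6 library of MMP9 listed at 1e-04 FPKM left out. The MMP3 points of shPRMT6 lie at 1.54 to 1.97 FPKM, below those of TIMP2 and MMP10, while in NC they lie at 16.7 to 19.8 FPKM.

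Summed over the 7 metalloproteinases, the FPKM was 383, 379 and 388 in NC and 424, 417 and 426 in shPRMT6, a sum carried mostly by MMP2 and MMP14. The 3 TIMPs summed to 1200, 961 and 1130 FPKM in NC and 1030, 1010 and 923 in shPRMT6, carried by TIMP1. The ratio of both sums was 0.319, 0.394 and 0.345 in NC and 0.412, 0.414 and 0.461 in shPRMT6. All shPRMT6 libraries had the higher ratio, by a margin that was narrow against NC replicate 2. RNA levels of enzymes and inhibitors give no measure of enzyme activity.

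The other listed members of the family were mostly low or did not differ past the threshold. Of these 17 genes, 9 passed the filter on low counts, and 0 of the 9 passed an adjusted p of 0.05, against 18.6% of all genes tested. The groups did not overlap for 3 of the 9, against 40.2% of all genes tested. The median log2 fold change of the 9 was 0.26. TIMP4, the remaining inhibitor, was at 13.9, 10.8 and 11.6 CPM in NC and 17.7, 15.4 and 15.9 CPM in shPRMT6, without overlap (log2 fold change 0.43, SE 0.128, adjusted p = 0.0618, edgeR's quasi-likelihood test). MMP16, a membrane-anchored enzyme, was also higher in each shPRMT6 library than in each NC library (log2 fold change 0.47, SE 0.165, adjusted p = 0.0975). TIMP4 passed with DESeq2, without NC replicate 1 and in 2 limma fits, and MMP16 passed with DESeq2 and without NC replicate 2. The log2 fold changes of MMP12 (-0.46), MMP7 (1.09), MMP11 (0.26), MMP17 (-0.12), MMP19 (0.03), MMP24 (-0.14) and MMP28 (0.69) had adjusted p from 0.289 to 0.948. MMP20, MMP26 and MMP27 had no counts in any library, and MMP8, MMP13, MMP21, MMP23B and MMP25 had 0 to 23.

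The metalloproteinase cluster of chromosome 11 runs from MMP7 to MMP13 over 435 kb (chr11:102520508-102955734) and holds 9 protein-coding genes. Counted from the start of MMP3 (chr11:102835801-102843803), the start of MMP10 (chr11:102770503-102780628) lies at -63.2 kb, that of MMP1 (chr11:102789920-102798160) at -45.6 kb and that of MMP12 at 31.2 kb. Along this stretch the log2 fold change was 0.89 for MMP10, 0.92 for MMP1, -3.42 for MMP3 and -0.46 for MMP12. MMP12, a macrophage elastase, had 52, 77 and 57 counts in NC and 45, 34 and 55 in shPRMT6. In CPM each shPRMT6 library (0.552 to 0.812) was below each NC library (0.913 to 1.01), and the adjusted p was 0.289. MMP3 was thus lower between a neighbour that was higher on one side and one that did not pass on the other.

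The nearest tested coding genes outside the cluster, named after their values were seen, had smaller differences than MMP3. They start at -526 kb (BIRC3), -497 kb (BIRC2), -373 kb (TMEM123), 248 kb (DCUN1D5), 266 kb (DYNC2H1) and 2130 kb (CASP4) from the start of MMP3, so CASP4 is far from the cluster. Of these 6 genes, TMEM123 was lower past the threshold (log2 fold change -0.45, SE 0.0632, adjusted p = 0.00539, edgeR's quasi-likelihood test), and BIRC3, BIRC2, DCUN1D5, DYNC2H1 and CASP4 lay between -0.40 and 0.27 and did not pass. The pseudogene WTAPP1 runs across MMP10, MMP1 and MMP3 on the opposite strand and shares 32 exonic bases with MMP3 (1.56%) and 150 with MMP1 (7.61%). Its counts were 7, 0 and 4 in NC and 0 in each shPRMT6 library. Whether strand was used in counting is not given in the sources used here, so reads of the overlapping bases cannot be told apart.

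**Figure D3:**
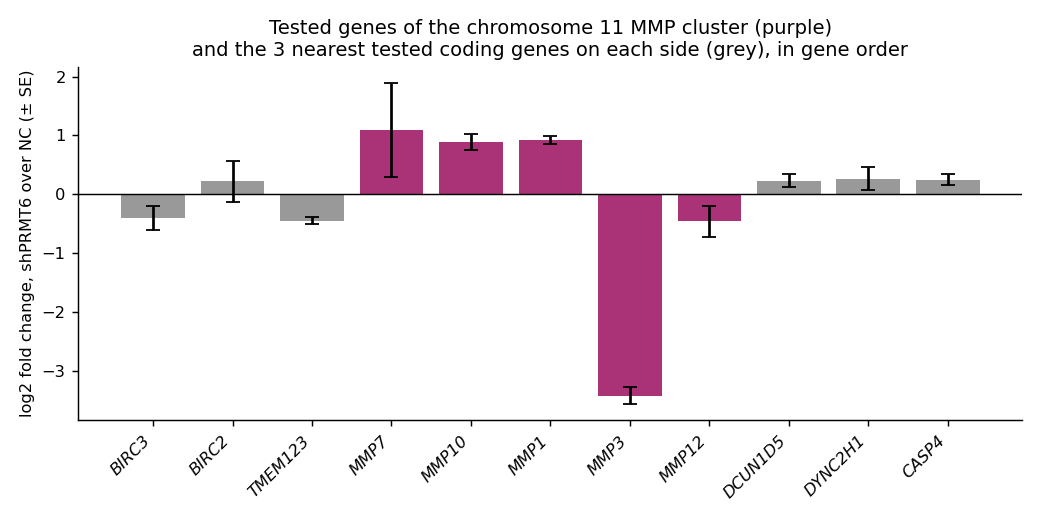
Bars give the log2 fold change of shPRMT6 over NC from edgeR with its SE for the tested genes of the cluster (purple) and the 3 nearest tested coding genes on each side (grey), in the order of the chromosome and not to scale, with CASP4 at 2130 kb. MMP3 at -3.42 stands beside MMP1 at 0.92 and MMP12 at -0.46, and the grey bars lie between -0.45 and 0.27.

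Across the 6 libraries, the RNA of KIF18B, MMD, UBE2T and KIF2C was most like that of MMP3, with a Pearson r of log2(CPM + 1) from 0.999 to 0.9996, among 10050 genes compared. KIF18B and KIF2C encode kinesin motors of the mitotic spindle, and UBE2T a ubiquitin-conjugating enzyme of DNA repair. All points share the split into 2 groups of libraries, and 127 genes had an r over 0.99. The log2 fold changes of these 4 genes, from -1.07 to -0.80, were smaller than that of MMP3.

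Among other proteases of the matrix, the ADAM and ADAMTS families, most genes did not pass the threshold. Of 30 listed genes 22 were tested, and 3 were lower and 5 higher past it, against 9.06% and 9.51% of all genes tested, with a median log2 fold change of 0.16. ADAMTS12 rose from 27.8 ± 2.31 to 58.4 ± 1.59 CPM (SD, n = 3 each, log2 fold change 1.07, adjusted p = 0.00100). ADAMTS4, an aggrecanase, fell (log2 fold change -1.11, adjusted p = 0.00256), as did ADAM8, a membrane-bound sheddase (-0.95, adjusted p = 0.00114), and ADAMTS6 (-0.61, adjusted p = 0.00891). The number past the threshold was 5 without NC replicate 3 and 4 without any 1 of the shPRMT6 libraries, and each of the 4 named genes passed in those fits.

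Inhibitors, activators and receptors of the metalloproteinases had calls in both directions. Of 22 listed genes 16 were tested, 5 were lower and 6 higher, against 9.06% and 9.51% of all genes tested, and the median log2 fold change was 0.13. TFPI2, a secreted serine protease inhibitor, was at 1200, 1210 and 1190 CPM in NC and 2160, 2180 and 2130 CPM in shPRMT6, so that it rose 1.80-fold with little spread (log2 fold change 0.85, SE 0.0403, adjusted p = 0.000262, edgeR's quasi-likelihood test). RECK, a membrane-anchored inhibitor of MMP2, MMP9 and MMP14, fell from 28.8 ± 2.37 to 16.0 ± 1.51 CPM (SD, n = 3 each, log2 fold change -0.85, adjusted p = 0.00420). ITGB3, an integrin chain (0.77, adjusted p = 0.00115), and PLAT, the tissue plasminogen activator (0.73, adjusted p = 0.00536), rose. The inhibitors TFPI2 and RECK thus changed in opposite directions.

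Some changes in this list were small and depended on single libraries. BSG, which encodes the metalloproteinase inducer EMMPRIN, had a log2 fold change of -0.57 (adjusted p = 0.0219), PLAU, the urokinase gene, one of 0.29 (adjusted p = 0.0286), and FURIN, a convertase that activates MMP14, one of 0.24 (adjusted p = 0.0467). FURIN did not pass without any 1 of the 6 libraries, PLAU without NC replicate 3 or any shPRMT6 library, and BSG without NC replicate 1, NC replicate 3 or shPRMT6 replicate 3. The number past the threshold was 6 without NC replicate 3 and 7 without any 1 of the shPRMT6 libraries. A2M, a plasma inhibitor, had 4 counts in NC replicate 1 and 0 in the other libraries.

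Matrix proteins, which these enzymes cut, had 5 lower and 5 higher genes among 17 tested of 20 listed, against 9.06% and 9.51% of all genes tested, with a median log2 fold change of 0.08. COL5A1, a fibrillar collagen chain, rose 2.02-fold (log2 fold change 1.02, adjusted p = 0.000472), and so did SPARC, a collagen-binding glycoprotein (0.76, adjusted p = 0.000880). HSPG2, which encodes perlecan, a basement membrane proteoglycan that MMP3 can cut, fell (-1.30, adjusted p = 0.00213). HSPG2 is itself 1 of the genes of the study's RNA heat map, so its direction is not independent.

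Transcription factors known to act on metalloproteinase promoters were listed from the AP-1, ETS, NF-kB and RUNX families, with CEBPB, and the list does not hold every member of those families. Of 19 tested, 5 were lower and 1 higher, against 9.06% and 9.51% of all genes tested, with a median log2 fold change of -0.25. ETS1 fell from 133 ± 12.4 to 70.3 ± 2.23 CPM (SD, n = 3 each, log2 fold change -0.92, adjusted p = 0.00144), NFKB1 by 0.72 on the log2 scale (adjusted p = 0.00213) and FOSL1, an AP-1 subunit, by 0.46 (adjusted p = 0.00224). JUN, another AP-1 subunit, rose from 408 ± 9.97 to 582 ± 7.80 CPM (log2 fold change 0.51, adjusted p = 0.00148). FOS was low, at 27 to 125 counts, and its log2 fold change of 0.14 did not pass (adjusted p = 0.894). Whether these factors act on the members in U87 cells was not tested.

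Cytokines and growth factors known to induce metalloproteinases had 5 lower and 0 higher genes among 14 tested of 15 listed, against 9.06% and 9.51% of all genes tested, with a median log2 fold change of -0.15. LIF was at 258, 248 and 262 CPM in NC and 156, 156 and 150 CPM in shPRMT6 (log2 fold change -0.73, adjusted p = 0.000727). HBEGF (-0.81, adjusted p = 0.00114), IL1B (-0.51, adjusted p = 0.00300), TGFA (-0.62, adjusted p = 0.00473) and IL6 (-0.62, adjusted p = 0.00559), the last named after its values were seen, also fell. IL1B remained abundant, at 1030 ± 67.6 CPM in NC and 720 ± 12.3 CPM in shPRMT6 (SD, n = 3 each).

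**Figure D4:**
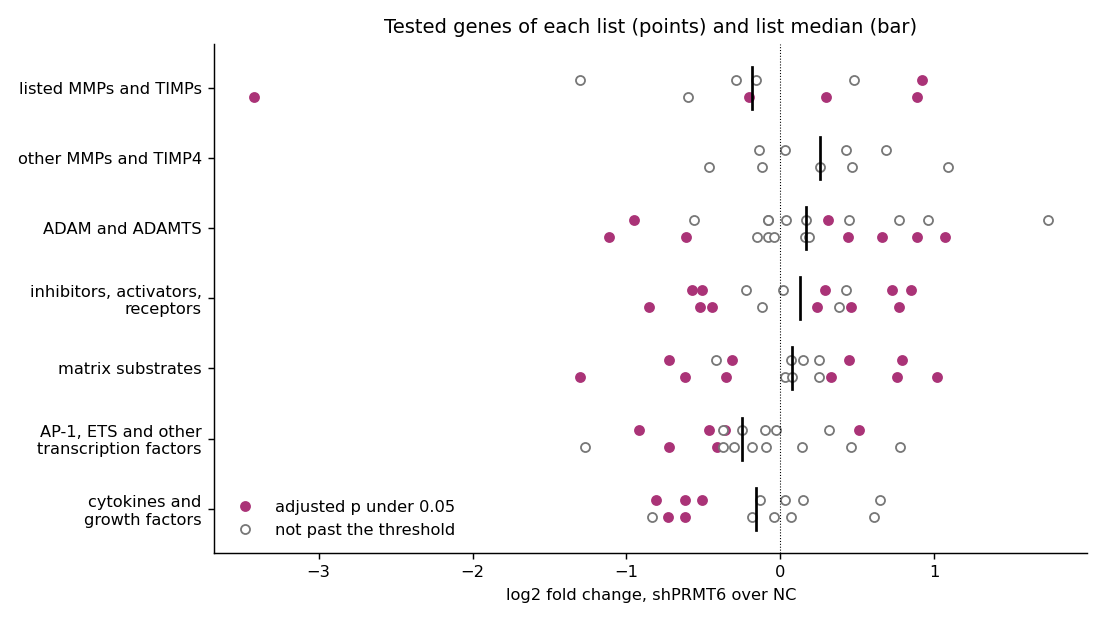
Each point is a tested gene, placed by its log2 fold change of shPRMT6 over NC from edgeR, filled where the adjusted p was under 0.05, with a black bar at the median of each list. The 10 family members in the top row were chosen on this contrast, and MMP3 at -3.42 is the lowest point in the plot.

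The summed markers of other cell types did not overlap between the groups in 3 of the lists. These were the epithelial, fibroblast and mural, and endothelial lists, and the immune and neuron sums overlapped. The sums were not tested, and the calls below are of single genes by edgeR's quasi-likelihood test. Gene by gene, the groups did not overlap for 40.2% of all genes tested, and 9.06% were lower and 9.51% higher past the threshold. Of 4 epithelial markers tested, KRT8 (log2 fold change -1.23, adjusted p = 0.0295) and CDH1 (-2.18, adjusted p = 0.0428) were lower, and the summed level of the list was 13.3 to 19.7 CPM in NC and 3.60 to 9.69 CPM in shPRMT6, with none of the 4 at 0 in all libraries. Of 5 fibroblast and mural markers tested, COL1A2 (0.33, adjusted p = 0.00342) and RGS5 (0.93, adjusted p = 0.0245) were higher past the threshold. PDGFRB was lower in each shPRMT6 library but did not pass (-0.31, adjusted p = 0.0828). COL1A1 (0.07) and ACTA2 (0.13) overlapped between the groups. The list summed to 1790 to 1890 CPM in NC and 2160 to 2170 CPM in shPRMT6, mostly from COL1A1 and COL1A2, with none at 0 throughout. The call of RGS5 was lost without any 1 of the 6 libraries, and those of KRT8 and CDH1 in each such fit but the one without shPRMT6 replicate 1. The 4 endothelial markers summed to 2.61 to 3.70 CPM in NC and 4.02 to 5.96 CPM in shPRMT6, mostly from PECAM1, which was higher in each shPRMT6 library but did not pass (log2 fold change 0.70, adjusted p = 0.0544), and 0 of the 2 tested passed. PECAM1 passed in 3 alternatives, with DESeq2, with at least 10 counts in every library and without shPRMT6 replicate 3. Of the 5 immune markers, PTPRC, CD14 and AIF1 had 0 to 4 counts, while CSF1R had 763 to 908 counts and CD68 was abundant, both without a call, and the sums overlapped at 161 to 267 CPM in NC and 157 to 328 CPM in shPRMT6. Of the 3 neuron markers tested, 0 passed, and their sums were 25.8 to 29.1 CPM in NC and 22.9 to 27.1 CPM in shPRMT6. The part of all these markers in the values of the 10 genes was not tested.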

How the data were processed

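Samples were 3 NC and 3 shPRMT6 libraries of U87 RNA, grouped by their labels. For every gene the authors deposited the raw count of each library. Deposited FPKM values, which the authors scaled by gene length and library size, stood beside it, where a gene with 0 counts is listed at 1e-04. The submitters' processing notes name HISAT2, HTSeq 0.13.5 and GRCh38, and the use of strand is not given in the sources used here. Of 60612 identifiers, 58394 matched GENCODE 29, which gave coordinates, overlaps and sequences.

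Counts were tested with edgeR 4.0.16 in R 4.3.3 (quasi-likelihood test, TMM scaling, filter on low counts, Benjamini-Hochberg adjustment over all genes), without a block. CPM are TMM-scaled, and errors are SD over 3 libraries. The alternatives used DESeq2 1.42.0 and limma 3.58.1 on log2(FPKM + 1) and log2(FPKM + 0.1), other scaling and filters, a replicate block, and each library left out in turn. The fits were tested on simulated data. The total counts, from 56388161 to 75887696, leave the 3 libraries per group and, for low genes, the counts as the limits of precision, and count limits cover counting error only. No library was a copy of another (chi-square over degrees of freedom 48.2 to 78.4 between replicates).

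The members and gene lists were chosen with earlier results of these data known. Named genes are the 10 members, PRMT6, all other listed MMP and TIMP genes, up to 4 genes with the smallest p past the threshold in each other list, RECK, FURIN, BSG, PLAU, A2M, FOS, FOSL1 and JUN whatever their p, and the 5 genes most correlated with MMP3 among those whose log2 CPM averaged 3 or more. Genes outside this rule are marked, and 1 gene that the rule names is not reported here. Figures were drawn with Python 3.11.15, and coding sequences were aligned with Biopython 1.88.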

Additional observations from a re-analysis of the deposited data

How the results depend on the processing

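Since this contrast chose the members, above all MMP3, their passing is a description and no sign of stability. Over 15 alternatives the log2 fold changes ran from 0.90 to 0.96 for MMP1, 0.29 to 0.30 for MMP2, -3.55 to -2.83 for MMP3 and 0.65 to 0.97 for MMP10, each past the threshold in all 15. MMP14 (-0.22 to -0.18) passed in 8 of 15, and MMP9, MMP15, TIMP1, TIMP2 and TIMP3 passed in none run for them. The number of all genes past the threshold was 3362, and 1755 to 3183 when 1 library was left out. Of the members 4 to 5 passed in those fits, and of the other listed genes 31 to 38, against 40. An absolute log2 fold change above 1 with an unadjusted p under 0.05 gave 1072 genes, and MMP3 as the 1 member. With the replicate block 1858 genes passed, 4 of them members, without MMP14, and 33 of the other listed genes, and the PRMT6 call was lost. Replicate numbers did not pair the libraries (correlations of deviations between same-numbered libraries from -0.0583 to -0.00776), so this was not read as a weaker effect. Among other values compared across alternatives, 238 kept their side of the threshold or moved little, and 12 lost it, all of MMP14 or PRMT6. The other 28 were counts that moved by over 1.5 times or rose from 0. For MMP9, MMP15 and TIMP3, limma with the filter on a mean FPKM of 1 was not possible, since their mean is lower, and MMP9 was not left by a filter of 10 counts in every library. At 0 to 30 counts per library, depth limits MMP9.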
